A study of Mus musculus with 8 samples.

Results

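The subunits of the proteasome, its activators, its inhibitor and its assembly chaperones were followed through 2 RNA-seq experiments labelled as intestinal organoid cultures. Members were every gene whose symbol was Psma to Psmg followed by a number, and in the knockdown tables also annotated as protein coding. The rule found 48 of 21757 genes in the mouse table and 48 of 60040 genes in the knockdown tables. The 3 immunoproteasome subunits, Psmb8, Psmb9 and Psmb10, were kept apart from the 45 constitutive and accessory members in each.

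The proteasome is the protease that degrades ubiquitin-tagged proteins. Its core particle stacks rings of alpha subunits on rings of beta subunits, of which Psmb5, Psmb6 and Psmb7 carry the catalytic sites. A regulatory particle of ATPases (Psmc) and non-ATPase subunits (Psmd) binds, unfolds and feeds the substrate. When cells respond to interferon, Psmb8, Psmb9 and Psmb10 replace Psmb5, Psmb6 and Psmb7 during assembly, and the resulting immunoproteasome is known for making peptides for presentation on class I molecules.

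In the genotype experiment, 2 WT libraries of mouse small intestinal organoids, grown with Wnt3a, R-spondin1, Noggin and EGF, were compared with 2 Ctnnb1-ex3 libraries, grown with Noggin and EGF alone. Genotype and medium therefore cannot be told apart. How the Ctnnb1-ex3 allele was activated, and from how many animals or lines, is not given in the sources used here, and counts over a whole gene cannot check an allele of 1 exon. In the knockdown experiment, the groups were sh-scramble, a control hairpin (2 libraries), and sh-Prmt1, a hairpin against the arginine methyltransferase Prmt1 (2 libraries). The labels describe these as mouse organoids too, but all gene identifiers in the knockdown tables are human, so human symbols are used and the source of these cells was not established. Nothing says that the replicates are separate cultures, and p-values then measure only the spread between libraries, which may be technical.

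Library totals were 2951887 to 6015933 counts in the genotype experiment and 39608109 to 53193244 estimated counts in the knockdown experiment. The unit of levels is CPM, a count divided by its TMM-scaled library size. Changes are log2 fold changes with their standard errors (SE) from edgeR's quasi-likelihood test, and "rose" and "fell" are used only at a Benjamini-Hochberg adjusted p below 0.05 over all genes tested. All 10 epithelial markers were counted in every library of both experiments. The 16 leukocyte markers summed to 94 and 34 counts in the WT libraries and to 128 and 370 in the Ctnnb1-ex3 libraries. The excess in Ctnnb1-ex3 replicate 2 included 110 counts of Gzma, a cytotoxic lymphocyte protease with 1 count in each of the other libraries. Of the 4 leukocyte markers with enough counts to test, Lck, a T cell kinase, rose. The 11 stromal and endothelial markers summed to 31 to 119 counts. In the knockdown libraries GZMA and TYROBP were at 0 throughout, and PTPRC, which marks leukocytes, reached at most 0.164 CPM. The leukocyte list summed there to 162 to 201 CPM, of which ITGAE, an integrin chain, gave 156 to 194 CPM.

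Short stretches of sequence upstream of 4 mouse catalytic subunit genes are shown for the catalytic pairs Psmb5 with Psmb8 and Psmb6 with Psmb9, on which the results turn. They come from RefSeq promoter windows on GRCm38.p6, which held 43 windows for 40 of the 48 members. Capitals mark matches, on either strand, to TGANNNNGC, the core of an antioxidant-type element, except in Psmb8, where they mark TTCNNNGAA, the core of a gamma-activated element. Psmb5 (chr14:54618023-54618245, minus strand) and Psmb6 (chr11:70525107-70525356, plus strand) are shown as the bases before the RefSeq start that lie in no annotated exon. Psmb9 (chr17:34187372-34187400, minus strand) and Psmb8 (chr17:34198088-34198116, plus strand) are shown only as the match with 10 bases on each side, since an annotated transcript of each gene starts further upstream.
Psmb5: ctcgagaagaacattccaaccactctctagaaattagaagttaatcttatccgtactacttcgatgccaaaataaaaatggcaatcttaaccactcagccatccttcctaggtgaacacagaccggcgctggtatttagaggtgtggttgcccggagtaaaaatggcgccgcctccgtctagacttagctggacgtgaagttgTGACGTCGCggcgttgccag
Psmb6: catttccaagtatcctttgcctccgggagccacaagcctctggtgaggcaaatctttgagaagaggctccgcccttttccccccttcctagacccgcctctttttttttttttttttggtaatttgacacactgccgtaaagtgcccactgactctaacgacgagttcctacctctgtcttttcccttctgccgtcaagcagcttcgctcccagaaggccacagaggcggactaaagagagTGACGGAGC
Psmb9: ccttgcgcgaTGATGGGGCggggcctcag
Psmb8: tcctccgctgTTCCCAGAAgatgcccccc

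TGANNNNGC was present in 23 of 40 constitutive and accessory windows, or 57.5%, and in 2 of 3 immunoproteasome windows, against 41.3% of all 32851 windows of the same length. TTCNNNGAA was present in 2 of 40, or 5.0%, and in 1 of 3, against 8.3% of all windows. The core of an interferon-stimulated response element (GAAA, NN, GAAA) was present in 5 of 40, or 12.5%, and in 0 of 3, against 3.4%. CCAAT was present in 13 of 40, or 32.5%, and in 1 of 3, against 37.4%. These motifs were searched on both strands, the 4 searches were independent so that matches could overlap, and a match describes letters, not binding.

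In Ctnnb1-ex3 organoids all 3 immunoproteasome subunits fell against WT organoids, Psmb8 about 4.09-fold, Psmb9 2.53-fold and Psmb10 1.71-fold. Across all 12976 genes tested 20.5% fell. Psmb8 (chr17:34197721-34201454 in GENCODE M21 on GRCm38) encodes the inducible partner of Psmb5. It measured 99.5 and 92.4 CPM in the WT libraries, from 432 and 243 counts, and 18.8 and 29.0 CPM in the Ctnnb1-ex3 libraries, from 125 and 113 counts. The groups did not overlap, and every Ctnnb1-ex3 library lay below every WT library. The log2 change was -2.03 ± 0.22 (SE; adjusted p = 0.000485).

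Psmb9 (chr17:34181987-34187764), the inducible partner of Psmb6, measured 59.6 and 59.0 CPM in WT and 21.6 and 25.4 CPM in Ctnnb1-ex3 libraries. The WT libraries were nearly equal and the groups were well apart, with a log2 change of -1.34 ± 0.21 (adjusted p = 0.00207). Psmb10, on chromosome 8, is the inducible partner of Psmb7. It measured 204 and 236 CPM in WT and 123 and 133 CPM in Ctnnb1-ex3 libraries, again without overlap. Its log2 change was -0.78 ± 0.15 (adjusted p = 0.00568), but it did not pass without WT replicate 2, at -0.68 (adjusted p = 0.0531). Without Ctnnb1-ex3 replicate 2, the library with the leukocyte transcripts, Psmb8 was at -2.36 and Psmb9 at -1.45. In bulk RNA, fewer cells of a type and less RNA per cell cannot be told apart.

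**Figure D1:**
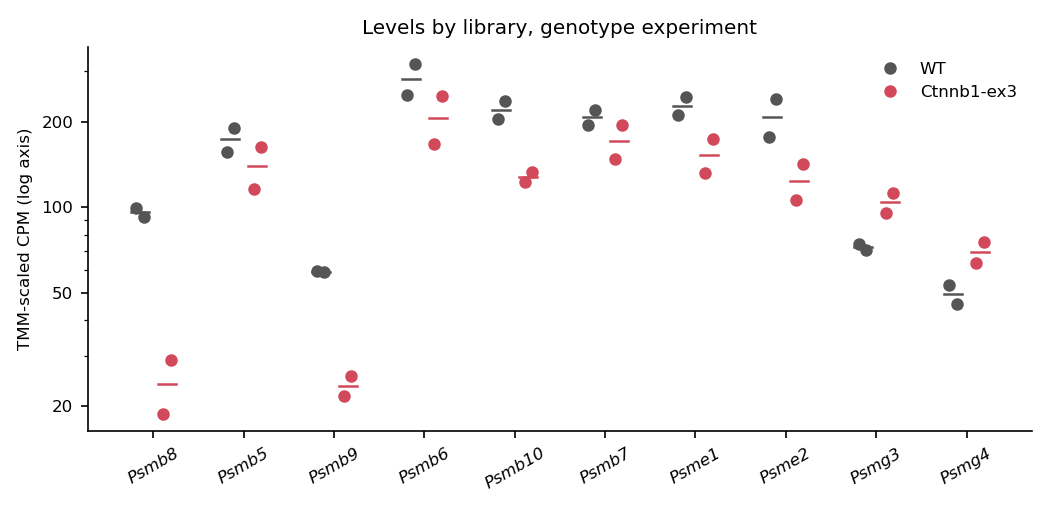
TMM-scaled CPM (log axis) of 10 members in each WT (grey) and Ctnnb1-ex3 (red) library. Points are single libraries and short lines their means, and the wide gaps are those of Psmb8, at 99.5 and 92.4 against 18.8 and 29.0 CPM, and Psmb9, at 59.6 and 59.0 against 21.6 and 25.4 CPM.

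The ratio of each inducible subunit to its constitutive partner was taken within each library, per kilobase of the longest annotated protein-coding transcript. In counts per kilobase, Psmb5, Psmb6 and Psmb7 lay at percentiles 96.9, 99.6 and 96.4 of tested genes with a length. Psmb8, Psmb9 and Psmb10 lay at 70.1, 66.2 and 94.6. Library ratios differed with this density, as given below, and its effect on the percentages that follow was not tested. Psmb8 stood at 35.0% and 26.9% of Psmb5 in the WT libraries and at 8.95% and 9.89% in the Ctnnb1-ex3 libraries. Psmb9 stood at 14.2% and 11.0% of Psmb6 in WT and at 7.66% and 6.12% in Ctnnb1-ex3 libraries. Psmb10 stood at 92.9% and 95.1% of Psmb7 in WT and at 73.5% and 60.5% in Ctnnb1-ex3 libraries. The 3 ratios were lower in each Ctnnb1-ex3 library than in either WT library, which is a description with no test of its own.

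The constitutive and accessory members had smaller log2 changes, between -0.75 and 0.52, and how they were called depended on how the counts were scaled. Of 45 members 44 were tested, since Psma8, a testis form of an alpha subunit, had 1, 1, 2 and 2 counts. In the TMM scaling 9 of the 44 fell and 1 rose, where 20.5% of all genes fell and 20.3% rose. Their median log2 change was -0.34, against 0.02 over all genes. Ratios between the deposited mouse libraries differed with read density, that is with counts per kilobase of transcript, and the cause was not tested. Between the WT libraries the median log2 ratio of counts was 0.83 in the least dense decile of genes, 0.88 in the third and 0.49 in the densest. The ratio of the library totals was 0.65. The median log2 change between genotypes also differed by density, from 0.69 in the least dense decile to -0.45 in the densest, where 37.7% of genes fell. Whether these trends share a source was not tested.

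Of the 47 tested members, immunoproteasome included, 31 lay in the densest decile and 46 above the median density. The 14 ring subunits other than Psma8 and Psmb11 had a median log2 ratio of 0.38 between the WT libraries. With an offset that follows read density, chosen after seeing the data, 1 constitutive or accessory member fell and 4 rose, against 21.3% and 20.6% of all genes, and their median change was 0.07. With upper-quartile factors, which moved all genes by a median of 0.24, 1 fell and 3 rose, against 13.5% and 28.7% of all genes. The immunoproteasome subunits fell under both: with the density offset Psmb8 was at -1.92, Psmb9 at -1.26 and Psmb10, itself in the densest decile, at -0.33 (adjusted p = 0.0350). The density offset is fitted to these same libraries and takes out any change that genes of like density share, also a real one. A call lost with it therefore does not tell a technical density trend from a real change. The part of the density trend in the constitutive decreases was not tested.

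**Figure D2:**
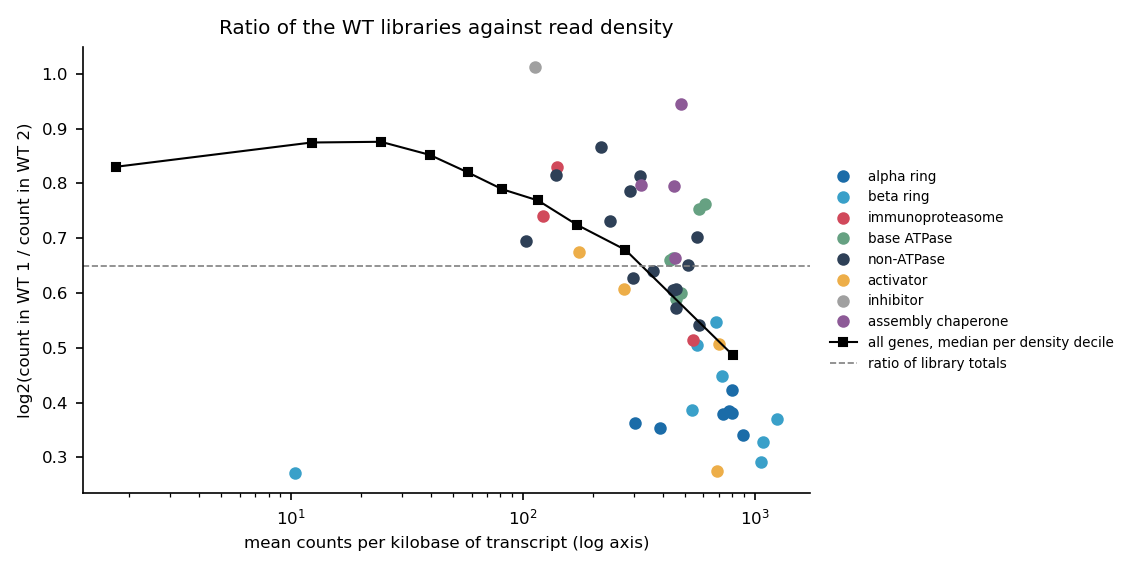
Log2 ratio of counts between WT replicate 1 and WT replicate 2 against mean counts per kilobase (log axis) for each tested member, coloured by class. Black squares are medians of all genes in deciles of density, drawn at the middle of each decile's range, and fall to 0.49 in the densest decile; the dashed line is the ratio of the library totals, 0.65.

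Among the alpha ring subunits, which form the gate of the core, 1 of 7 fell, against 20.5% of all genes. Psma1 measured 253 and 312 CPM in WT and 167 and 209 CPM in Ctnnb1-ex3 libraries, a log2 change of -0.59 ± 0.19 (adjusted p = 0.0379) that was -0.07 and not called with the density offset. Among the 8 constitutive beta subunits none passed by edgeR (Psmb2 came closest, at -0.51, adjusted p = 0.0897). Psmb5 was at -0.32, Psmb6 at -0.46 and Psmb7 at -0.27, and the Psmb5 and Psmb7 groups overlapped. Psmb11, a thymus-restricted catalytic subunit, had 8.06, 11.0, 10.8 and 10.5 CPM, with no separation of the groups.

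In the regulatory particle, 2 of 6 ATPases and 4 of 14 non-ATPase subunits fell, against 20.5% of all genes and 37.7% of genes in the densest decile. Psmc6 measured 286 and 315 CPM in WT and 186 and 194 CPM in Ctnnb1-ex3 libraries, a log2 change of -0.66 ± 0.16 (adjusted p = 0.0123). Psmc1 was at -0.53. Psmd10, also known as gankyrin and a chaperone for base assembly, measured 145 and 154 CPM against 102 and 93.5 CPM, at -0.61 ± 0.13 (adjusted p = 0.00891). Psmd14, the deubiquitinase of the lid, was at -0.55 and Psmd6, another lid subunit, at -0.56. Psmd5, a base assembly chaperone, measured 126 and 129 CPM against 88.1 and 86.8 CPM, at -0.54 ± 0.13 (adjusted p = 0.0112). It was the one decrease that also passed with the density offset, at -0.52, and its read density was the lowest of the tested regulatory particle genes. At the other end, Psmd3 was at 0.16 and not called, and with that offset Psmd3 (0.41) and Psmd7 (0.32) rose.

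The activators Psme1 and Psme2, which form an interferon-inducible cap that opens the core, both fell. Psme1 measured 210 and 245 CPM in WT and 132 and 173 CPM in Ctnnb1-ex3 libraries, at -0.58 ± 0.18 (adjusted p = 0.0358). Psme2 measured 176 and 240 CPM against 106 and 142 CPM, at -0.75 ± 0.21 (adjusted p = 0.0225). In neither gene did the groups overlap, but with the density offset Psme1 was at -0.10 and Psme2 at -0.26, and neither passed. Psme3, a nuclear activator, was at -0.12, Psme4, an activator known from sperm cells, at 0.03, and the inhibitor Psmf1 at -0.17, and none of these 3 passed.

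Of the 4 assembly chaperones 1 rose and none fell by edgeR, against 20.3% and 20.5% of all genes. Psmg3, which with Psmg4 helps build the alpha ring, measured 73.9 and 70.4 CPM in WT and 95.7 and 112 CPM in Ctnnb1-ex3 libraries and rose by 0.52 ± 0.14 on the log2 scale (adjusted p = 0.0213). Psmg4 measured 53.2 and 45.6 CPM against 63.4 and 75.3 CPM, at 0.48 ± 0.17 (adjusted p = 0.0586), just outside the threshold. In both genes the groups did not overlap, and with the density offset both rose, by 0.91 and 0.88. Psmg1 and Psmg2 were at -0.09 and -0.10 and did not pass.

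Leaving out a library leaves 1 in its group, which is then assumed to vary like the other group. A call can thus be lost while the change stays as large. Over the 4 removals Psmb8 stayed between -2.36 and -1.74, Psmb9 between -1.45 and -1.23 and Psmb10 between -0.91 and -0.68. All that follows in this paragraph is about the constitutive and accessory members only. Without WT replicate 1 only the decrease of Psme2 passed, at -0.99, and without WT replicate 2 none did. The increase of Psmg3 was then at 0.53 and 0.48. Over the 4 removals Psmd5 stayed between -0.59 and -0.54, Psmd6 between -0.62 and -0.53, Psmd10 between -0.69 and -0.55 and Psmc6 between -0.76 and -0.61. Psma1 ranged from -0.76 to -0.44, Psmc1 from -0.68 to -0.41, Psmd14 from -0.68 to -0.44, Psme1 from -0.79 to -0.40 and Psme2 from -0.99 to -0.53. Without Ctnnb1-ex3 replicate 1, 5 members fell and 2 rose, and without Ctnnb1-ex3 replicate 2, 27 fell and 1 rose.

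**Figure D3:**
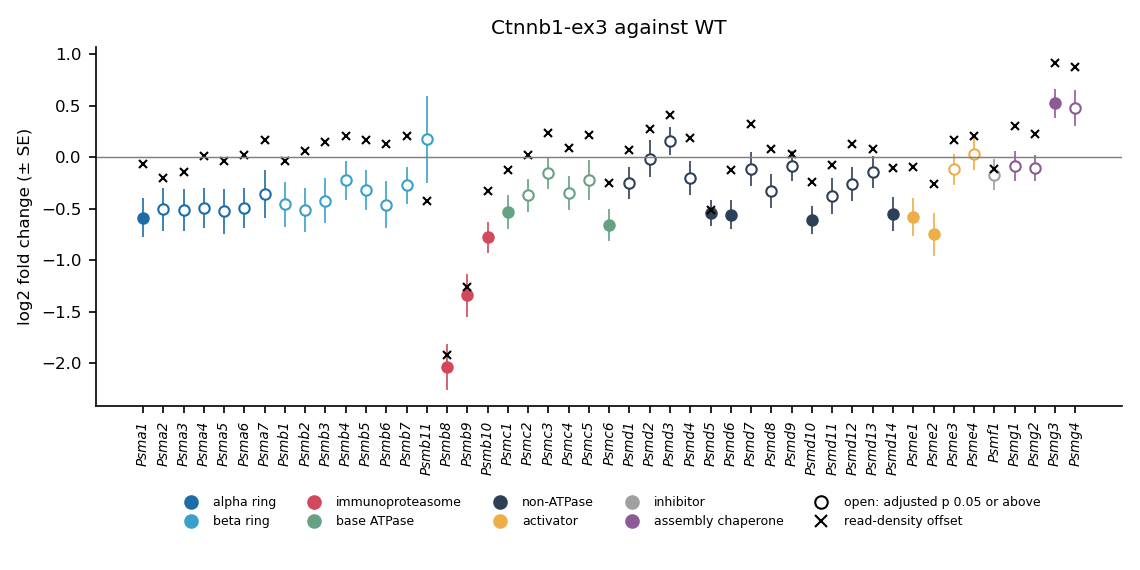
Log2 fold change (± SE) of Ctnnb1-ex3 against WT for every tested member by class, filled where the adjusted p was below 0.05, with crosses for the density-offset fit. The ring subunits other than Psmb11, which is at 0.17 by TMM and -0.43 by the offset, lie below 0 by TMM and between -0.20 and 0.21 by the offset, and the immunoproteasome subunits lie below 0 in both.

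Beside the subunits, 28 proteasome cofactors and regulators were tested, of which 4 fell and none rose by edgeR, against 20.5% and 20.3% of all genes. Ngly1, which deglycosylates the proteasome's transcription factor Nfe2l1, was at -1.56, Nfe2l2, an antioxidant-response transcription factor, at -1.09, Zfand5 at -0.60 and Ufd1l at -0.49. Ngly1 and Nfe2l2 passed whichever library was left out, whereas Zfand5 (-0.78 to -0.46) and Ufd1l (-0.69 to -0.34) each lost the call without either WT library and without 1 of the Ctnnb1-ex3 libraries. Nfe2l1 (0.07), the maturation factor Pomp (-0.48) and the ubiquitin receptor Adrm1 (0.24) did not pass. With the density offset 5 of the 28 fell and 4 rose, against 21.3% and 20.6% of all genes.

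Of 16 genes of interferon signalling and peptide loading 14 were tested, 9 fell and none rose, against 20.5% and 20.3% of all genes. Irf1, an interferon-induced transcription factor, measured 149 and 138 CPM in WT and 58.5 and 67.0 CPM in Ctnnb1-ex3 libraries, at -1.20 ± 0.14 (adjusted p = 0.000635). The kinase Jak2 was at -1.19 and the receptor chain Ifngr1 at -1.05, and these 3 passed whichever library was left out. The peptide transporter Tap1 (-0.43) did not pass, and Nlrc5 had too few counts to test (3, 5, 4 and 9). With the density offset 7 of the 14 fell, against 21.3% of all genes. Of the 10 epithelial markers 4 fell, or 2 with the density offset, against 20.5% and 21.3% of all genes. Their part in these results was not tested. Prmt1, the target in the other experiment, rose from 10.1 and 11.4 CPM to 51.2 and 32.4 CPM (log2 change 1.97, adjusted p = 0.00287).

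In the knockdown experiment PRMT1 itself went from 37.0 and 34.2 CPM in the sh-scramble libraries to 2.99 and 3.35 CPM in the sh-Prmt1 libraries, a log2 change of -3.48 ± 0.12 (adjusted p = 1.04e-06). Of the proteasome genes, PSMB8 and PSMB9 rose, the alpha ring and the chaperones held decreases and no increase, and the beta ring held increases and no decrease. Over all 18447 genes tested 20.6% rose and 20.4% fell. Of the 45 constitutive and accessory members 43 were tested, 9 rose and 15 fell, with a median log2 change of -0.02 against 0.03 over all genes. PSMA8 and PSMB11, restricted to testis and thymus, were at or near 0.

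PSMB8 measured 35.3 and 34.6 CPM in the sh-scramble libraries and 55.3 and 46.5 CPM in the sh-Prmt1 libraries, and rose by 0.54 ± 0.10 (adjusted p = 0.00202). PSMB9 measured 7.82 and 5.85 CPM against 13.2 and 11.6 CPM, and rose by 0.86 ± 0.16 (adjusted p = 0.00212). In both, each sh-Prmt1 library lay above each sh-scramble library, and both calls held whichever library was left out. PSMB10 measured 45.1 and 39.8 CPM against 41.9 and 37.5 CPM, with overlapping groups, and was not called (-0.10, adjusted p = 0.468).

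Per transcript length, in TPM, PSMB8 stood at 16.2% and 18.7% of PSMB5 in the sh-scramble libraries and at 22.9% and 21.6% in the sh-Prmt1 libraries. PSMB9 was only 1.53% and 1.03% of PSMB6 in the controls and 1.69% and 1.87% with sh-Prmt1. PSMB10 stood at 38.8% and 41.4% of PSMB7 and then at 27.6% and 28.2%. The ratio to the partner was thus higher for PSMB8 and PSMB9 and lower for PSMB10, whose partner PSMB7 rose.

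**Figure D4:**
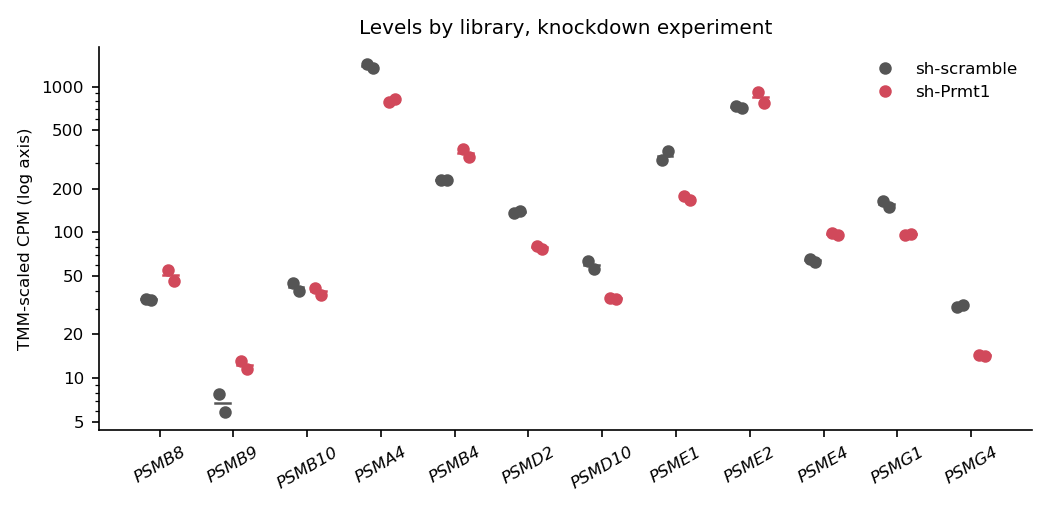
TMM-scaled CPM (log axis) of 12 members in each sh-scramble (grey) and sh-Prmt1 (red) library, with short lines for means. PSME1 went from 313 and 360 to 178 and 167 CPM and PSMG4 from 30.9 and 31.7 to 14.6 and 14.2 CPM, whereas the PSMB10 groups overlap.

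Levels per length differed widely between classes. In the sh-scramble libraries the mean TPM of alpha subunits ran from 107 (PSMA5) to 1018 (PSMA7) and that of constitutive beta subunits from 90.1 (PSMB2) to 1056 (PSMB3). ATPases ran from 51.4 (PSMC5) to 232 (PSMC1), non-ATPase subunits from 7.37 (PSMD5) to 156 (PSMD14) and chaperones from 43.2 (PSMG4) to 105 (PSMG1). PSMB9, at a mean of 5.71 TPM, was the lowest of the core subunits that were tested.

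In the alpha ring 4 of 7 subunits fell and none rose, against 20.4% and 20.6% of all genes. PSMA4 measured 1418 and 1330.3 CPM in the sh-scramble libraries and 780 and 823 CPM in the sh-Prmt1 libraries, at -0.78 ± 0.09 (adjusted p = 0.000183). PSMA3 was at -0.51, PSMA6 at -0.47 and PSMA7 at -0.31, the last of which did not pass without sh-Prmt1 replicate 2 (-0.23). PSMA1, PSMA2 and PSMA5 did not pass and lay between -0.11 and 0.10. With limma on log2(TPM + 1), which moved all genes by a median of 0.14, PSMA4 alone passed. There PSMA3 was at -0.32, PSMA6 at -0.22 and PSMA7 at -0.10.

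In the constitutive beta ring 4 of 7 rose and none fell, against 20.6% and 20.4% of all genes. PSMB4, a structural subunit, measured 229 and 230 CPM against 374 and 332 CPM, at 0.62 ± 0.09 (adjusted p = 0.000615). The catalytic subunits PSMB6 and PSMB7 were at 0.49 and 0.42, and PSMB2 was at 0.26. PSMB4 alone of these passed whichever library was left out: PSMB6 was at 0.31 without sh-Prmt1 replicate 1, PSMB7 at 0.29 without sh-scramble replicate 2 and 0.31 without sh-Prmt1 replicate 1, and PSMB2, at 0.18 to 0.32, lost its call whichever library was left out. PSMB5 (0.19), PSMB1 (0.01) and PSMB3 (-0.0015) did not pass. Called alpha and beta subunits thus lay on opposite sides of 0, a difference between the rings that was not itself tested.

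Of the 6 ATPases, PSMC5 rose by 0.34 and PSMC4 was the only one that fell, at -0.36. Of all genes 20.6% rose and 20.4% fell. Neither PSMC5 nor PSMC4 was robust to single libraries. PSMC5 was at 0.23 without sh-Prmt1 replicate 1 and 0.29 without sh-scramble replicate 2. PSMC4 was at -0.18 without sh-scramble replicate 1, -0.35 without sh-Prmt1 replicate 1 and -0.41 without sh-Prmt1 replicate 2. The 13 pseudogenes named after PSMC1 held 3.01% of its and their joint estimated counts. It was not called, and adding pseudogene counts to their parent genes left 9 members that rose and 15 that fell.

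Of the 14 non-ATPase subunits 2 rose and 6 fell, against 20.6% and 20.4% of all genes. PSMD2, a scaffold of the base, measured 135 and 140 CPM against 80.6 and 77.5 CPM, at -0.80 ± 0.08 (adjusted p = 7.67e-05). PSMD10 measured 63.5 and 56.2 CPM against 35.8 and 34.8 CPM, at -0.76 ± 0.09 (adjusted p = 0.000164). PSMD6 fell by 0.44, PSMD5 by 0.32 and PSMD14 by 0.26, while PSMD3 and PSMD8 each rose by 0.44. In every one of these 7 called genes the groups did not overlap, which was also so in PSMD1, PSMD11 and PSMD13, which were not called. The share of all genes without overlap was not computed, so these separations add nothing to the calls.

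PSMD12, a lid subunit, had a decrease in counts of 0.62 that was not seen per length. It measured 194 and 195 CPM against 122 and 132 CPM, but 37.5 and 32.0 TPM against 34.9 and 35.1 TPM. Salmon's effective length for it was 2900 and 3561 bases in the sh-scramble libraries and 2421 and 2392 bases in the sh-Prmt1 libraries. With an offset for effective length, chosen after seeing the data, it was at -0.19 (adjusted p = 0.260), and limma on log2(TPM + 1) gave 0.01. With that offset 7 constitutive and accessory members rose and 11 fell, against 15.7% and 18.0% of all genes. Beside PSMD12, the calls of PSMA7, PSMB2, PSMC4, PSMD5 and PSMF1 were lost. PSMD5 measured 6.63 and 8.11 TPM against 7.92 and 6.25 TPM, with overlapping groups.

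Among the activators PSME1 and PSME2, partners in 1 cap, did not move together. PSME1 measured 313 and 360 CPM in the sh-scramble libraries and 178 and 167 CPM in the sh-Prmt1 libraries, at -0.96 ± 0.10 (adjusted p = 6.9e-05). PSME2 measured 735 and 709 CPM against 912 and 777 CPM, at 0.23 (adjusted p = 0.113). PSME4 measured 66.3 and 62.8 CPM against 99.2 and 95.8 CPM and rose by 0.60 ± 0.08 (adjusted p = 0.000402). PSME3 was at 0.22 and not called, and the inhibitor PSMF1 rose by 0.26, a call lost whichever library was left out (0.18 to 0.27).

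Of the 4 assembly chaperones 3 fell, against 20.4% of all genes. PSMG4 measured 30.9 and 31.7 CPM in the sh-scramble libraries and 14.6 and 14.2 CPM in the sh-Prmt1 libraries, at -1.12 ± 0.09 (adjusted p = 2.14e-05), the lowest log2 change of any member. PSMG1 measured 164 and 149 CPM against 96.8 and 97.7 CPM, at -0.69 ± 0.09 (adjusted p = 0.000233), and PSMG3 was at -0.42. PSMG2 was at -0.23 and did not pass. Antisense genes at 3 members fell as those members did: PSMG3-AS1 was at -1.22, from 40 to 81 estimated counts, PSMD6-AS2 at -1.13 and PSMA3-AS1 at -0.66. PSMB8-AS1 was at 0.44 and not called (adjusted p = 0.0838), and PSMD6-AS1 had too few counts to test. The labels do not say that counting used strand, so reads of each pair may not be told apart, although the antisense counts were small beside the members'.

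**Figure D5:**
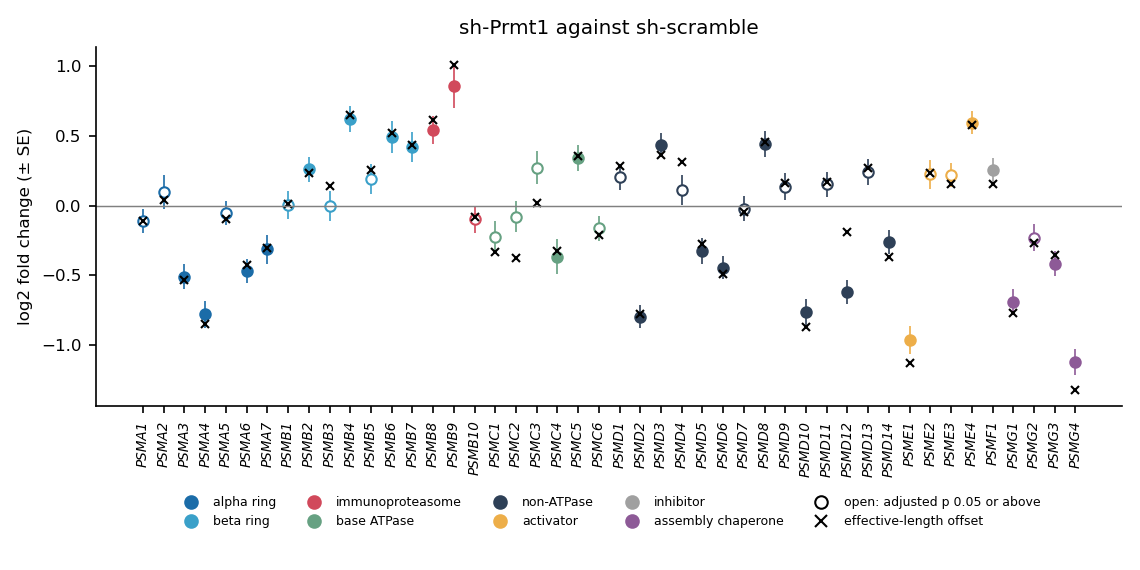
Log2 fold change (± SE) of sh-Prmt1 against sh-scramble for every tested member by class, filled where the adjusted p was below 0.05, with crosses for the effective-length fit. Called alpha ring and chaperone genes lie below 0, called beta ring genes above 0, and the cross of PSMD12 lies at -0.19 against -0.62.

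Of 29 proteasome cofactors and regulators tested, 10 rose and 7 fell, against 20.6% and 20.4% of all genes. With the effective-length offset 7 rose and 6 fell, against 15.7% and 18.0%. UCHL5, a deubiquitinase of the regulatory particle, fell by 1.11, and DDI2, the protease that activates NFE2L1, by 0.92. POMP measured 3136 and 3835 CPM without the hairpin to PRMT1 and 1956 and 2116 CPM with it, and fell by 0.78, and NFE2L2 fell by 0.71. ZFAND2A, a stress-induced proteasome adaptor, rose by 1.02 and ADRM1, the receptor that recruits UCHL5, by 0.41. NFE2L1 rose by 0.43 but did not pass without sh-scramble replicate 2 or sh-Prmt1 replicate 1 (0.30 to 0.52 over the removals), and it was at 0.06 with the effective-length offset (adjusted p = 0.782).

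Of 15 genes of interferon signalling and peptide loading tested, 4 rose, against 20.6% of all genes. With the effective-length offset 4 rose, against 15.7%. IRF1 rose from 4.50 and 5.07 CPM to 12.1 and 10.7 CPM, a log2 change of 1.25 ± 0.14 (adjusted p = 0.000123). TAP1, whose promoter region adjoins that of PSMB9, rose by 0.80 and the peptide-loading factor TAPBP by 0.72, while IRF9 was at 0.71 and lost its call whichever library was left out (0.58 to 0.78). NLRC5 was at 0.34 and not called. Epithelial markers moved too, with 5 of 10 rising against 20.6% of all genes, and their part in the result was not tested.

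The experiments used different organisms' annotations and libraries and were fitted apart. Of 46 members tested in both, 8 were called in both by TMM. Over all genes 5291 of 12976 were called in the genotype experiment and 7558 of 18447 in the knockdown experiment. The share of all genes called in both was not computed, so whether 8 of 46 differs from that share is not known. PSMD5, PSMD6, PSMD10, PSMD14 and PSME1 fell in each, whereas Psmb8 and Psmb9 fell in Ctnnb1-ex3 organoids and rose in sh-Prmt1 cells. Psmg3 rose in the former and fell in the latter. Of these shared decreases, Psmd5 alone passed in the genotype experiment with the density offset, and PSMD5 alone did not pass in the knockdown experiment with the effective-length offset (-0.27, adjusted p = 0.167), so none of the 5 passed with both offsets. Across the 46 members the Pearson r of the changes was -0.24, and it was 0.01 without Psmb8 and Psmb9, a description over genes that share libraries.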

How the data were processed

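RNA from 8 libraries, 2 in each of 4 groups, was sequenced after a custom Smart-seq2 preparation, per the labels' protocols. The genotype table held the deposited whole-number counts per mouse gene; its lowest value was 1, and how a count of 0 was treated is not given in the sources used here. The knockdown files held estimated counts, effective lengths and TPM per gene, deposited by the authors in Salmon's output format. The submitters' processing notes name Salmon, DESeq2 and mm10, with no versions. Log2 fold changes and p-values of the authors' deposited comparison tables were used only to attach symbols and gene types and are not printed.

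Estimated counts were rounded, and 197 sex-linked human genes were left out. edgeR 4.0.16 (R 4.3.3) was run on each experiment by itself: TMM factors, filterByExpr, quasi-likelihood test, two-sided, Benjamini-Hochberg over all genes tested, called below 0.05. The procedure was tested on simulated counts. DESeq2 1.42.0, limma 3.58.1, other scalings, no filter, a replicate block, left-out libraries, pseudogene counts and 2 offsets chosen after seeing the data were alternatives. The density offset is a loess of each library on mean counts per kilobase, with lengths from GENCODE M21, found for 94.5% of genes.

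Named genes were the immunoproteasome subunits and their partners, activators and inhibitor, the extremes of each class with up to 4 called members, and set genes of the other lists; further members were named after their values were seen. A gene of the interferon list is not reported here by name or value, although the list totals include it. Members and lists were chosen with earlier results of these data known. With 2 libraries a group, an exact permutation test cannot go below 0.333, so only the fits across all genes were used. Gene counts carry counting error, which is larger in the shallower genotype libraries.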

Additional observations from a re-analysis of the deposited data

How the results depend on the processing

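In the genotype experiment, 3 immunoproteasome subunits fell in every alternative except the removal of WT replicate 2, which left 2. The counts of constitutive and accessory members, 9 that fell and 1 that rose, were not stable: DESeq2 gave 17 and 0, upper-quartile factors 1 and 3, and the read-density offset 1 and 4. Over removals of single libraries 0 to 27 fell and 0 to 2 rose. RLE factors, limma-voom, no filter and the removal of 1 from every count gave 9 to 13 that fell and 1 that rose. In the knockdown experiment, 9 rose and 15 fell. limma on log2(TPM + 1), a scale that moved all genes by a median of 0.14, gave 11 and 6, and PSMD12 then was at 0.0145 in place of -0.62; its effective length differed between groups. Over removals of single libraries 4 to 9 rose, with 4 without sh-Prmt1 replicate 1 and 5 without sh-scramble replicate 2, and 12 to 15 fell. PSMB8 and PSMB9 rose in every alternative. For the genes named, 51 of the alternative values lost a call and 21 gained one in the genotype experiment, against 51 and 4 in the knockdown, where PSMD12 also lost its call on reversing.

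Replicate numbers were not treated as pairs. Same-numbered deviations correlated at 0.07 in the genotype and -0.05 in the knockdown experiment, which cannot decide whether the samples were paired. With a replicate block 26 constitutive and accessory members fell and 1 rose in the genotype experiment, and 14 fell and 8 rose in the knockdown experiment. The cause of these differences was not tested. Nlrc5 had too few counts to test in the genotype libraries and was tested in the deeper knockdown libraries.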
